A study of Mus musculus with 8 samples.

Results

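Complement and blood clotting are cascades of plasma proteins in which serine proteases cut and activate the next member, and the liver makes most of them. Complement starts from the C1 complex or from mannose-binding lectins, passes through C3 and ends in the membrane attack complex, and it is held back by regulators in plasma and on cell membranes. Clotting starts from tissue factor, passes through prothrombin and ends in fibrin, which is made from the 3 fibrinogen chains, while the protein C pathway and tissue factor pathway inhibitor limit it. The transcripts of 39 such genes were examined: 15 complement components, 5 complement regulators, and 19 genes of coagulation and its control. They were named by symbol, and all 39 had a row among the 21983 gene symbols of the count table.

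RNA-seq was run on AML-12, an established mouse hepatocyte line. In 4 libraries Gm47544, a long non-coding RNA gene, was overexpressed, and the genotype in the labels is GM47544 overexpressed. The other 4 libraries were controls with pLKO.1, a lentiviral vector backbone, and their genotype is labelled WT. All cells were kept in DMEM with serum, and the labels give neither the vector of the overexpression cells nor whether each library is a culture of its own. The p-values therefore cover the spread among the 8 libraries at hand, which may be technical. Gm47544 itself was not analysed here, so neither the labels nor the overexpression was checked with it.

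Totals ran between 11016907 and 18965662 counts per library. All 8 hepatocyte markers examined had reads in both groups, with Hnf4a, a hepatocyte transcription factor, at 310 ± 4.51 CPM (the usual unit of counts relative to library size, here with scaled sizes) in overexpression libraries and 348 ± 23.7 CPM in controls (SD, n = 4 each). Of these markers 2 rose, 2 fell and 4 did not pass: the secreted proteins Alb, albumin, at 267 ± 28.2 CPM in overexpression libraries and 22.3 ± 3.85 CPM in controls, and Ttr, transthyretin, at 279 ± 24.2 and 1321 ± 239 CPM, moved furthest in each direction, and Apob rose and Serpina1a fell (log2 fold changes 0.76 and -1.69). The biliary keratin Krt19 was also abundant, at 1702 ± 142 CPM in overexpression libraries and 2253 ± 570 CPM in controls. Of 5 biliary markers 4 were tested: Krt19 and Sox9 fell, Krt7 did not pass and Spp1 rose. Spp1 was at 2731 ± 114 CPM in overexpression libraries and 943 ± 209 CPM in controls. Epcam had 0 overexpression and 1 control counts. Of 8 macrophage markers, Adgre1, Clec4f, C1qa, C1qb and C1qc had 0 counts in all 8 libraries. The others had reads in both groups: Csf1r 564 overexpression and 1577 control counts, Cd68 69 and 90, and Ptprc 32 and 39. Control library 3 stood apart from its group: its score was -22.2 on the first principal component (82.5% of the variance), where overexpression libraries scored 43.4 to 50.4 and the remaining controls -60.7 to -50. Member values without this library are given where they move by more than 1.5 times or lose a call.

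AML-12 cells carried reads for only a part of the cascades. Of the 39 genes, 20 had enough reads to be tested, and 8 had 0 counts in all 8 libraries: C6, C8a and C8b of the membrane attack complex, the membrane regulator Cd55, the clotting proteases F7, F9 and F10, and Plg, which encodes plasminogen. A count of 0 over a group allows up to 3 counts, or 0.0548 CPM in overexpression libraries and 0.0509 CPM in controls, counting error only. Another 6 genes had between 1 and 12 counts over all libraries, namely C9, F11, F12, Kng1, F13b and Thbd. The remaining 5 genes not tested were Masp2, Mbl2, Vtn, F2 and Fgg, each with more reads than these.

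Levels per length spanned 3 orders of magnitude among the tested genes. On the scale of scaled CPM per kilobase of exon (RPKM), C1s1 and C3 were the most abundant in overexpression libraries, at 146 ± 18.7 and 116 ± 37.3 RPKM, and in controls they were at 35.6 ± 8.43 and 91.9 ± 8.75 RPKM (SD, n = 4). C1s1 was thus first and C3 the next in overexpression libraries, where their ranges overlapped, while C3 was above C1s1 in each of the 4 controls. C1ra, Proc, F3 and Pros1 followed in that order in both groups, between 42.5 and 11.5 RPKM in overexpression libraries and between 23.8 and 8.06 RPKM in controls. The fibrinogen genes Fga and Fgb were near 1 RPKM in overexpression libraries, at 0.985 and 0.913, and were at 0.115 and 0.121 RPKM in controls.

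Most of the tested genes changed, in a comparison in which most of the transcriptome did. At an adjusted p below 0.05, 12 of the 20 tested genes were higher and 3 were lower in overexpression libraries (quasi-likelihood test of edgeR, p-values adjusted over all genes tested by Benjamini-Hochberg). The background was 64.4% of 11520 tested genes called, 32.3% higher and 32.1% lower. Changes of at least 2-fold were called for 8 higher and 2 lower of these genes, against 11.5% and 9.02% of all tested genes. The 4 overexpression values lay above the 4 control values for 10 of the 20 genes and below them for 3, against 28.5% and 27.5% of all tested genes. These counts are a description: Fga and Fgb reached the count filter only in overexpression libraries and Cfi only in controls. Cd46 reached it in all 4 overexpression libraries but in only 2 controls. These genes were thus tested only through the group where they were high, and their calls add no support.

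The 3 classes held 9, 3 and 8 tested genes, and their counts are a description. Of the complement components, 3 rose, 2 fell and 4 of 9 tested did not pass, with a median log2 fold change of 0.18. Of the complement regulators, 2 of 3 tested rose and 1 fell, with a median of 0.54. Of the coagulation genes, 7 of 8 tested rose and 0 fell, with a median of 1.14. Beside these counts, 32.3% of all tested genes were called higher and 32.1% lower. Masp1, Proc and Cd59a, 1 in each class, lost their calls in 7, 6 and 5 of 16 alternatives. The median over all tested genes was 0.000406, and no test between the classes was made. The coagulation median includes Fga and Fgb, tested only through their overexpression reads. Of the regulators, Cd46 was likewise tested only through its overexpression libraries and Cfi only through its controls. With no count filter the medians of components, regulators and coagulation genes were 0.56, 1.38 and 0.59, so the order of the classes depended on the filter.

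**Figure D1:**
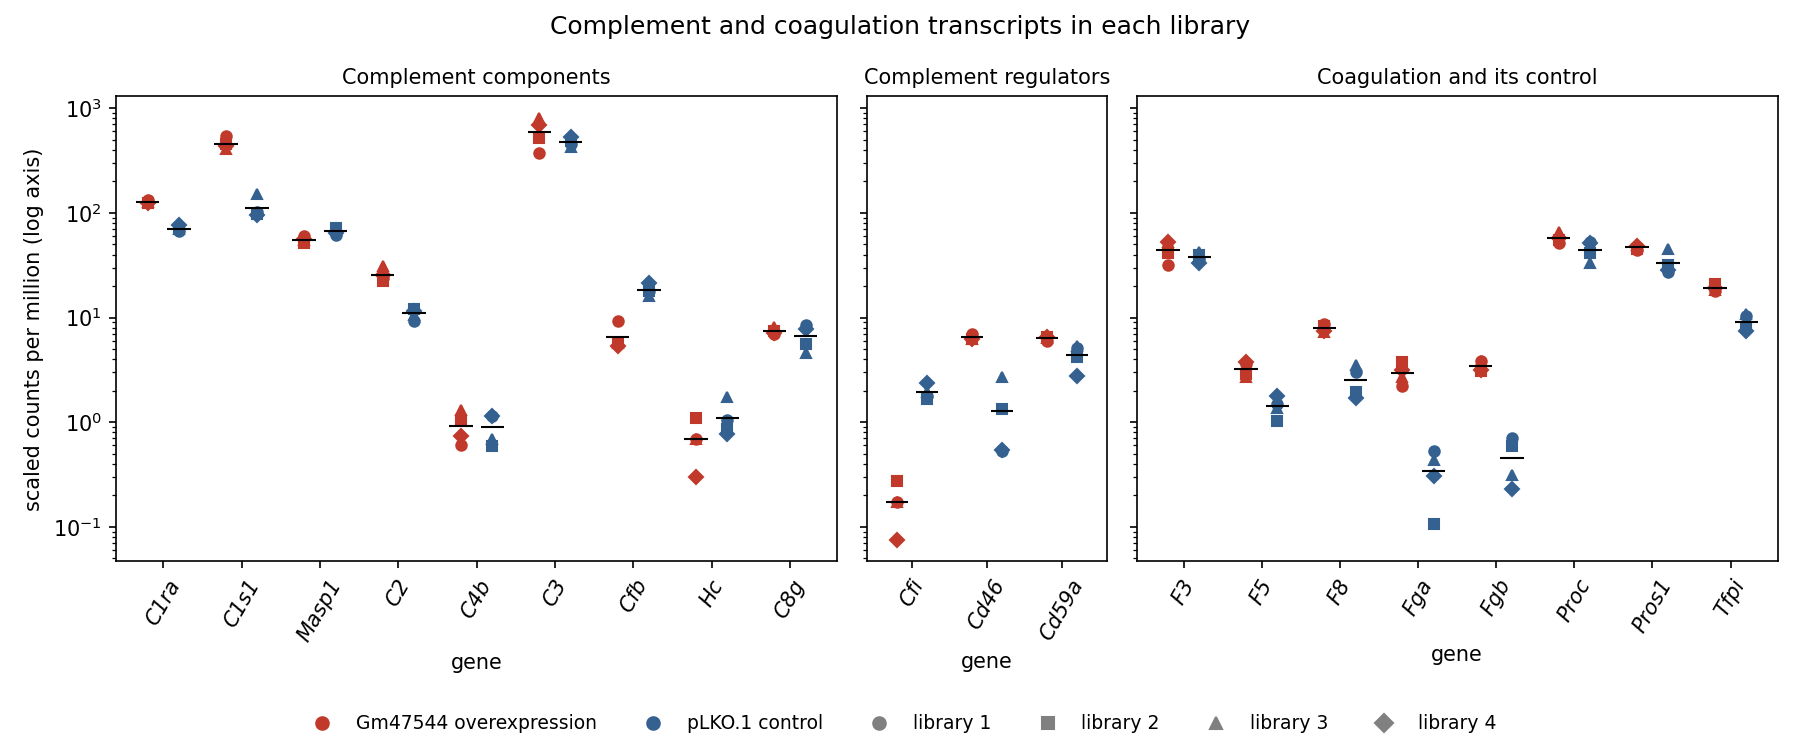
Scaled CPM (log axis) of the 20 tested genes in each library, with overexpression in red left of pLKO.1 controls in blue, marker shapes for library numbers and black lines for group means (n = 4 each). Fga, Fgb and Cd46 stand apart upward and Cfi and Cfb downward in overexpression libraries, while the C3 values of both groups overlap.

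The fibrinogen genes had the largest rises among the clotting genes. They lie side by side on chromosome 3 in GRCm38, with Fgg at 83007724 to 83015049 and Fga at 83026076 to 83033627 on the plus strand and Fgb at 83040141 to 83049863 on the minus strand. Since they moved together, the 250 bases before the RefSeq start of each are shown (GRCm38.p6, read on the gene's own strand). The windows are chr3:83025903-83026152 (plus) for Fga, chr3:83049864-83050113 (minus) for Fgb and chr3:83007474-83007723 (plus) for Fgg. The RefSeq start of Fga lies downstream of 83026076, the gene start given above, so the last part of its window is inside that gene. Capitals mark matches to GTTAAT, the core of sites for the hepatocyte factor HNF1, to TTNNGNAA, a pattern for C/EBP factors, and to CTGGGA, a hexamer of interleukin-6 response elements, each searched on both strands.
Fga: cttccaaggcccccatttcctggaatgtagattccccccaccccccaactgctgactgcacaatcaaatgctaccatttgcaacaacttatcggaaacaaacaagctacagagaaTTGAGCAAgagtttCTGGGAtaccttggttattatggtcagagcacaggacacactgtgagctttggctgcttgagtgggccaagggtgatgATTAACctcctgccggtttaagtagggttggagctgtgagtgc
Fgb: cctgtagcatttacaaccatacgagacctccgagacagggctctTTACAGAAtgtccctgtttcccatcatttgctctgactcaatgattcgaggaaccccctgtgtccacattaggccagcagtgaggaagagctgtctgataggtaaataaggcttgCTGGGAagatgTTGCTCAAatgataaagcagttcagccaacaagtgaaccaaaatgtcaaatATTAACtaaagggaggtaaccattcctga
Fgg: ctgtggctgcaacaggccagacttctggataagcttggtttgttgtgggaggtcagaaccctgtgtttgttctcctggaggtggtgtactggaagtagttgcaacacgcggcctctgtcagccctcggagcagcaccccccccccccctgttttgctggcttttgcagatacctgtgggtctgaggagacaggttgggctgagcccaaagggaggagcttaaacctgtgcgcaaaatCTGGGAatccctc

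CTGGGA was found in all 3 windows, from base -121 in Fga, -91 in Fgb and -13 in Fgg, counted back from the start, and in 27.0% of 32851 promoter windows of the same length. GTTAAT was found, as its reverse complement, from -43 in Fga and from -29 in Fgb and not in the Fgg window, against 6.43% of all windows. The Fga match to GTTAAT lies in the part of the window inside the annotated gene. TTNNGNAA was found from -135 in Fga and from -206 and -80 in Fgb, against 36.8% of all windows. None of these matches overlapped another, and TATAAA, searched on the gene strand, was in none of the 3 windows and in 7.59% of all windows. Among the 33 windows that RefSeq gives for 30 of the 39 genes, 8 held GTTAAT, 13 held TTNNGNAA, 12 held CTGGGA and 2 held TATAAA. A match is a run of letters and was not tested as a binding site.

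Fga, the alpha chain, had 2.23, 3.80, 2.70 and 3.13 CPM in overexpression libraries 1 to 4, against 0.531, 0.107, 0.437 and 0.307 CPM in control libraries 1 to 4. The lowest overexpression value was about 4 times the highest control value, and the log2 fold change was 3.17 (SE 0.37, edgeR adjusted p = 1.46e-05). Fgb, the beta chain, had 3.86, 3.08, 3.84 and 3.13 CPM in overexpression libraries, against 0.708, 0.590, 0.312 and 0.230 CPM in controls. Its groups did not overlap either, and its log2 fold change was 2.89 (SE 0.30, edgeR adjusted p = 7.38e-06). Fgg, the gamma chain, had 5, 5, 2 and 7 counts in overexpression libraries and 0 in every control, which is at least 6.83-fold higher against a floor of 3 counts over the control group. Fgg did not reach the count filter, and in the fit with no such filter its adjusted p was 9.97e-04 (edgeR). Fgg shares 115 of its 2093 exon bases with Gm30097 on the opposite strand, so its counts are uncertain to that extent. Per length, Fga was 1.11 ± 0.373 times Fgb in overexpression libraries and 1.16 ± 0.722 times in controls (SD, n = 4), and Fgg, at 0.167 RPKM in overexpression libraries, was below both. F13b, which carries the fibrin cross-linking enzyme, had 3 overexpression and 6 control counts.

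The clotting cofactors F5 and F8 rose. F5 encodes the cofactor with which factor X activates prothrombin. It had 3.60, 2.86, 2.70 and 3.80 CPM in overexpression libraries, against 1.504, 1.02, 1.37 and 1.77 CPM in controls, with no overlap and a log2 fold change of 1.21 (SE 0.24, edgeR adjusted p = 7.24e-04). F5 shares 262 of its 7430 exon bases with Gm16548 on the opposite strand, so its counts are uncertain to that extent. F8, the cofactor of factor IX, had 8.66, 8.26, 7.24 and 7.45 CPM in overexpression libraries, against 3.01, 1.93, 3.56 and 1.69 CPM in controls. Every overexpression value of F8 was above every control value, and the log2 fold change was 1.64 (SE 0.22, edgeR adjusted p = 5.06e-05). In the liver F8 is mainly a gene of endothelial cells. Of 8 endothelial markers 2 were tested and both rose, Cdh5 at 1.29 ± 0.0529 CPM in overexpression libraries against 0.117 ± 0.148 CPM in controls and Vwf at 1.97 ± 0.69 against 0.651 ± 0.232 CPM (SD, n = 4). Cdh5 reached the count filter only in overexpression libraries, and the Vwf call was lost once the gene-length trend was removed (adjusted p = 0.0866). The summed level of all 8 was 3.31 to 4.24 CPM in overexpression libraries and 0.437 to 1.34 CPM in controls, with Kdr at 0 overexpression and 1 control counts and Tek at 0 and 3. Of the 8 macrophage markers, 5 were at 0, Csf1r fell, at 10.2 CPM in overexpression libraries against 27.1 CPM in controls, and Cd68 did not pass, at 1.28 against 1.57 CPM. Of the 6 stellate markers, Lrat was at 0 and Des and Col1a1 rose, and their sum was 9.86 to 17.4 CPM in overexpression libraries against 3.69 to 5.68 CPM in controls. The part of such cells in the F8 values was not tested, and in bulk libraries more cells of a type and more RNA per cell cannot be told apart.

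Tissue factor, which starts clotting, did not pass, and its inhibitor rose. F3, the tissue factor gene, had 31.6, 41.0, 53.3 and 52.6 CPM in overexpression libraries and 36.0, 39.8, 42.3 and 33.5 CPM in controls. Overexpression library 1 lay below all controls, library 2 within their range and libraries 3 and 4 above it, and the log2 fold change was 0.23 (SE 0.16, edgeR adjusted p = 0.22). Without that library it was 0.36 (adjusted p = 0.0475), and once the gene-length trend was removed 0.55 (adjusted p = 0.0132). Tfpi, tissue factor pathway inhibitor, had 18.0, 21.0, 18.3 and 19.0 CPM in overexpression libraries, against 10.4, 8.04, 10.7 and 7.37 CPM in controls. These groups did not overlap, and Tfpi had a log2 fold change of 1.06 (SE 0.15, edgeR adjusted p = 6.76e-05).

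Proc and Pros1 of the protein C pathway had smaller rises, while Procr, the membrane receptor for protein C, fell (log2 fold change -1.44). Proc encodes protein C, which inactivates the cofactors F5 and F8 once activated. It had 52.1, 55.0, 65.4 and 57.9 CPM in overexpression libraries and 52.5, 41.3, 33.2 and 51.0 CPM in controls, so the groups overlapped by 1 library on each side. The log2 fold change of 0.37 (SE 0.15, edgeR adjusted p = 0.0422) lost its call without overexpression library 1, 2, 3 or 4 and without control library 2 (adjusted p 0.0501 to 0.131), and it was 0.23 without control library 3. Pros1, the protein S gene for the cofactor of activated protein C, had 44.5, 45.4, 49.1 and 48.3 CPM in overexpression libraries, against 27.1, 31.6, 44.9 and 28.3 CPM in controls. Control library 3 alone reached the overexpression range, and the log2 fold change was 0.50 with it and 0.66 without it (SE 0.15, adjusted p = 0.0119 with it, edgeR). Thbd, the membrane receptor that turns thrombin towards protein C, had 0 overexpression and 4 control counts, and F2, the prothrombin gene, had 6 overexpression and 19 control counts.

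In the classical pathway, C1ra, C1s1 and C2 transcripts rose, and C4b, with 51 overexpression and 50 control counts, did not pass. C1ra and C1s1 encode the proteases of the C1 complex and are adjacent on chromosome 6, C1ra at 124512405 to 124523443 (plus strand) and C1s1 at 124530345 to 124542359 (minus strand). C1ra had 134, 123, 126 and 123 CPM in overexpression libraries, against 66.5, 70.3, 70.4 and 76.4 CPM in controls, with a log2 fold change of 0.84 (SE 0.10, edgeR adjusted p = 1.88e-05). C1s1 had 541, 452, 406 and 433 CPM in overexpression libraries, against 101, 98.2, 150.6 and 95.02 CPM in controls, with a log2 fold change of 2.04 (SE 0.16, edgeR adjusted p = 9.45e-07). Neither gene had overlapping groups, and control library 3 was the highest control for C1s1. Within each library C1s1 was 3.44 ± 0.327 times C1ra per length in overexpression libraries and 1.5 ± 0.374 times in controls (SD, n = 4), a ratio chosen after its values were seen. Both genes have close copies, C1rb and C1s2, with which reads may be shared. C1rb had 67 overexpression and 72 control counts and did not pass (edgeR adjusted p = 0.963). C1s1 also shares 576 of its 3129 exon bases with an antisense gene, Gm16567, and the strand setting of the counting is not stated in the labels.

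C2 rose while Cfb, its neighbour and relative, fell. C2 encodes the catalytic subunit of the classical C3 convertase and Cfb that of the alternative C3 convertase. Cfb (chromosome 17, 34856374 to 34862518) lies 85 bases from C2 (34862604 to 34898265), both on the minus strand. C2 had 24.1, 22.5, 30.95 and 25.3 CPM in overexpression libraries, against 9.38, 12.2, 10.6 and 11.6 CPM in controls, and its log2 fold change was 1.23 (SE 0.14, edgeR adjusted p = 1.65e-05). Cfb had 9.35, 5.67, 5.75 and 5.36 CPM in overexpression libraries, against 17.9, 17.75, 16.1 and 21.3 CPM in controls, and its log2 fold change was -1.49 (SE 0.18, edgeR adjusted p = 2.56e-05). The groups of both genes were apart, in opposite directions. Per length, the C2 to Cfb ratio was 1.88 to 3.92 in overexpression libraries and 0.383 to 0.5 in controls. The annotation holds a gene over both on the same strand, Gm20547, which had 0 counts in all libraries and shares 1656 of the 3872 exon bases of C2 and 2246 of the 2825 of Cfb. If reads there were not counted for either gene, the levels per length change: over the 2216 and 579 bases not shared, the ratio was 0.674 to 1.41 in overexpression libraries and 0.137 to 0.179 in controls. The second length scales the ratio of every library alike, so it could not change whether the groups were apart. Which gene of the pair was the more abundant in overexpression library 1 depended on this length. C2 also shares 161 exon bases with Zbtb12 on the opposite strand. Both the ratio and this second length were chosen after the values were seen.

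**Figure D2:**
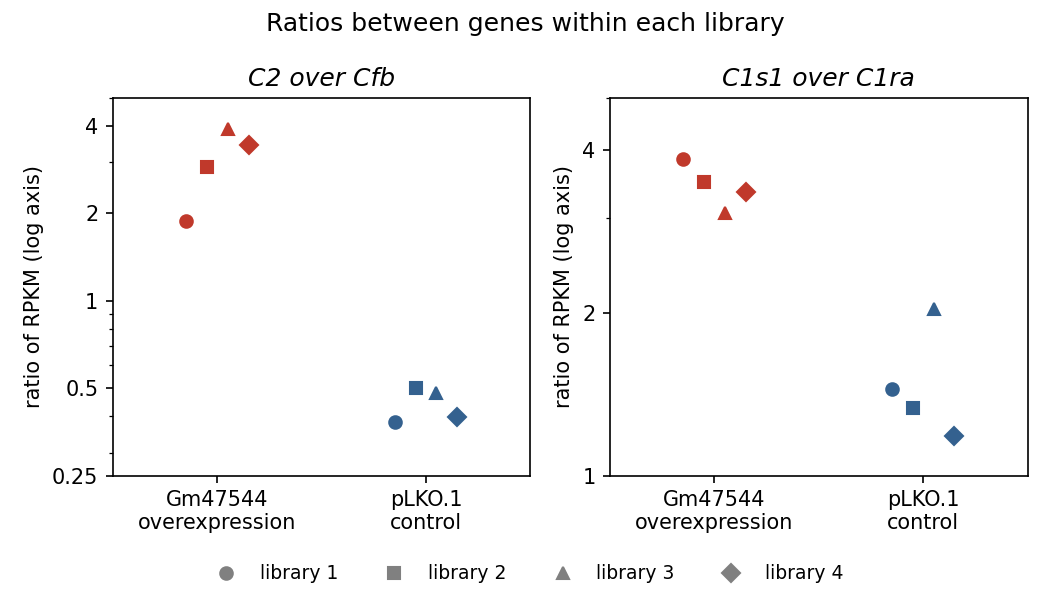
Ratios of RPKM between genes of the same library (log axes), for C2 over Cfb and C1s1 over C1ra, with overexpression in red left of pLKO.1 controls in blue and marker shapes for library numbers. With whole exon lengths, the C2 to Cfb ratio is 1.88 to 3.92 in the 4 overexpression libraries and 0.383 to 0.5 in the 4 controls, and control library 3 has the highest C1s1 to C1ra ratio of the controls.

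In the lectin pathway 1 gene was called. Masp1, a protease that binds mannose-binding lectins, had 60.4, 51.0, 54.6 and 55.9 CPM in overexpression libraries and 61.5, 71.1, 70.9 and 64.3 CPM in controls. The groups were apart by a narrow margin, and the log2 fold change of -0.27 (SE 0.11, edgeR adjusted p = 0.0406) lost its call in 7 of 16 alternatives, among them scaling by library totals (-0.15, adjusted p = 0.277) and leaving out overexpression library 2, 3 or 4 or control library 2 (adjusted p 0.0906 to 0.14). Mbl2, mannose-binding lectin C, had 33 overexpression and 15 control counts. Masp2 had 36 and 8 counts and rose in the fit with no count filter (log2 fold change 2.18, SE 0.62, edgeR adjusted p = 0.00464). Masp2 shares 1817 of its 3307 exon bases with Tardbp on the opposite strand, so its counts are uncertain.

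C3, C4b and the later components gave no called change. C3, the protein at which all pathways meet, had 373, 521, 813 and 688 CPM in overexpression libraries and 454, 482, 424 and 529.8 CPM in controls. Overexpression library 1 lay below all controls and libraries 3 and 4 above them, and the log2 fold change was 0.34 (SE 0.19, edgeR adjusted p = 0.137). Without overexpression library 1 it was 0.51 (adjusted p = 0.0148), and with scaling by library totals 0.47 (adjusted p = 0.0489). C4b had 51 overexpression and 50 control counts, and Hc, the C5 gene, had 40 and 66, and neither passed (adjusted p = 0.807 and 0.187, edgeR). Of the membrane attack complex, C8g was the only tested gene. It encodes the lipocalin chain of C8 and had 7.4 ± 0.507 CPM in overexpression libraries and 6.62 ± 1.87 CPM in controls (SD, n = 4). Its log2 fold change was 0.18 (SE 0.20, edgeR adjusted p = 0.449) and became 0.77 (adjusted p = 8.77e-04) once the gene-length trend was removed. C8a and C8b, whose chains make up the rest of C8, had 0 counts, and C9 had 5 overexpression and 2 control counts.

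Among complement regulators, Cfi had the largest fall of all 20 tested genes. It encodes factor I, the protease that cuts C3b and C4b with the help of cofactors. Cfi had 0.171, 0.275, 0.174 and 0.0745 CPM in overexpression libraries, against 1.77, 1.66, 1.94 and 2.38 CPM in controls, or 10 counts against 113. Each control was at least 6 times the highest overexpression library, and the log2 fold change was -3.35 (SE 0.37, edgeR adjusted p = 1.08e-05). Cd46, a membrane cofactor for factor I whose expression in mice is known mainly from the testis, had 7.03, 6.28, 6.28 and 6.26 CPM in overexpression libraries, against 0.531, 1.34, 2.69 and 0.538 CPM in controls. The Cd46 groups were apart, and its log2 fold change was 2.26 (SE 0.35, edgeR adjusted p = 1.42e-04) and 2.85 without control library 3, a fold 1.5 times as large. Only 2 controls reached the count filter for Cd46, so it was tested through its overexpression libraries and its call adds no support. Cd46 shares 1079 of its 7603 exon bases with A330023F24Rik on the opposite strand, so these counts are uncertain.

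Cd59a, which blocks the last step of the membrane attack complex, had 6.002, 6.50, 6.36 and 6.55 CPM in overexpression libraries, against 5.13, 4.18, 5.37 and 2.77 CPM in controls. The groups were apart by less than 1 CPM, and the log2 fold change of 0.54 (SE 0.20, edgeR adjusted p = 0.0288) lost its call without overexpression library 2, 3 or 4 and without control library 2 or 4 (adjusted p 0.0551 to 0.0736). Vtn, vitronectin, a plasma inhibitor of the membrane attack complex, had 7, 5, 10 and 8 counts in overexpression libraries and 0, 0, 1 and 0 in controls. At equal depth that is a ratio of 32.3 (95% exact interval 5.38 to 1319, counting error only), and Vtn rose in the fit with no count filter (adjusted p = 2.38e-04, edgeR).

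Part of the comparison ran along gene length. Among all tested genes the median log2 fold change was -0.48 in the shortest of 4 length classes, with a median exon length of 2003 bases, and 0.44 in the longest, with 9180 bases. With this trend removed from each library, all 15 called genes kept their direction and their call. F8, F5 and Cd46, which are long, had log2 fold changes of 1.21, 0.92 and 1.99, and Fga, Fgb and Cfi had 3.39, 2.99 and -2.96. Masp1, the longest called gene but F8, was at -0.72 and C1s1 at 2.24.

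**Figure D3:**
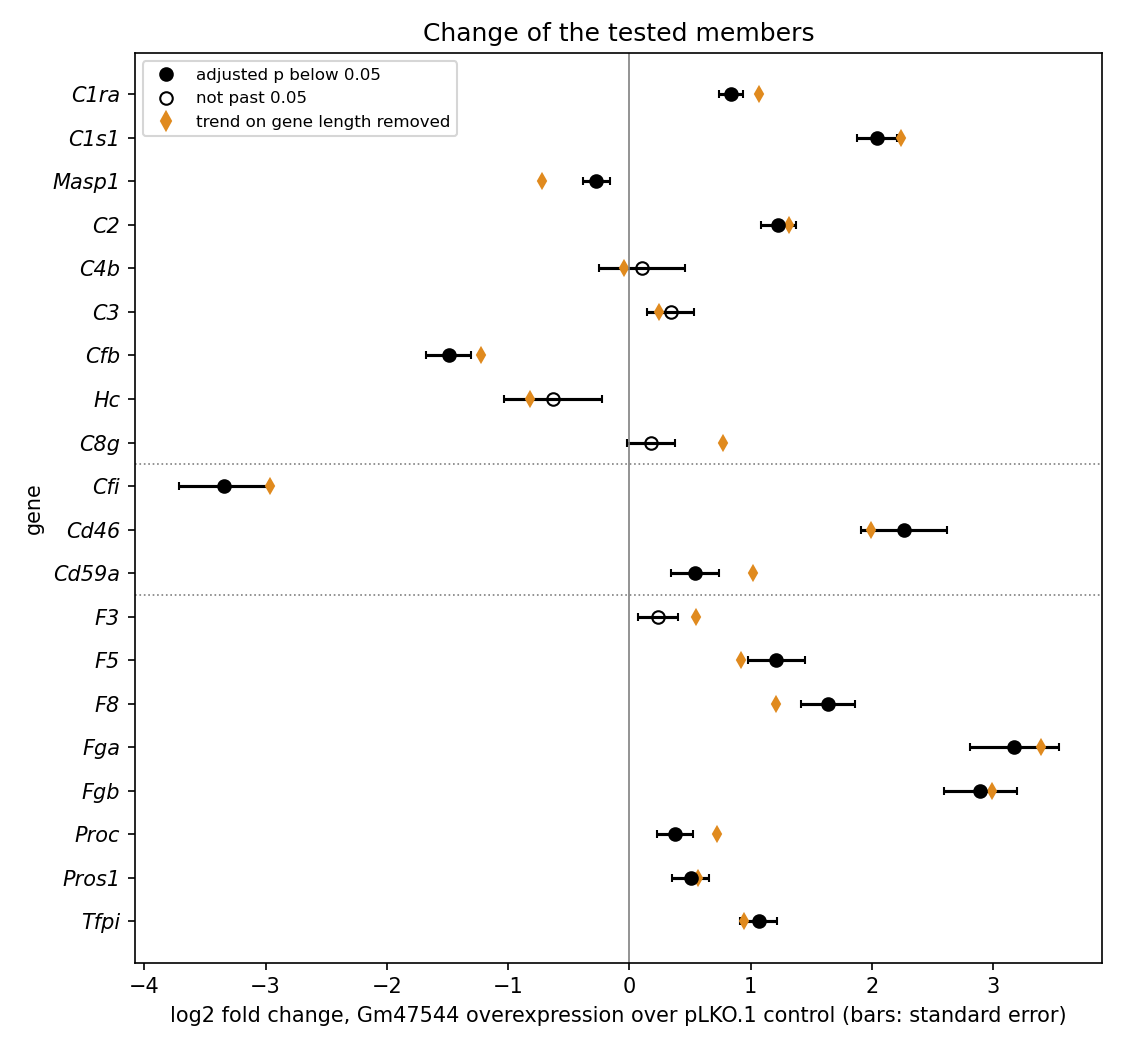
Log2 fold change of overexpression over pLKO.1 control for the 20 tested genes, with standard errors as bars, filled circles where the adjusted p was below 0.05 and orange diamonds once the gene-length trend was removed, in 3 blocks for components, regulators and coagulation. Every called gene keeps its side of 0 with the trend removed, and C8g and F3 move furthest upward among genes that did not pass.

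The rest of the pathways was read from a list of 75 other genes with a row in the table, of which 31 were tested, 11 rose and 11 fell, a called share of 71.0% beside 64.4% of all tested genes (32.3% higher, 32.1% lower). Other complement genes rose for 4 of 7 tested and fell for 2, complement regulators and receptors fell for 1 of 3, other coagulation genes rose for 4 of 9 and fell for 2, and inhibitors and fibrinolysis genes rose for 3 of 12 and fell for 6. Their medians were 0.59, -0.27, 0.32 and -0.18.

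C4bp, the cofactor with which factor I cuts C4b, had 28.8 ± 2.48 CPM in overexpression libraries and 7.16 ± 2.78 CPM in controls (log2 fold change 2.00, SE 0.22, edgeR adjusted p = 9.3e-06). C1s2, the close copy of C1s1, had a log2 fold change of 2.22, and its level per length was 0.0729 ± 0.00386 times that of C1s1 in overexpression libraries and 0.0641 ± 0.00252 times in controls (SD, n = 4). Cfhr2, of a family with close copies among which reads may be shared, had 13 overexpression and 131 control counts and reached the count filter only in controls (log2 fold change -3.21, SE 0.42, edgeR adjusted p = 3.9e-05). C1qbp, a mitochondrial protein first known for binding C1q, was at 106 ± 4.66 CPM in overexpression libraries against 282 ± 49.3 CPM in controls. Cpn1, the carboxypeptidase that clips anaphylatoxins, had a log2 fold change of -0.48, whose call was lost without overexpression library 3 or 4 and with scaling by library totals (adjusted p 0.0512 to 0.0643).

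Among inhibitor and fibrinolysis genes, 6 of 12 tested fell and 3 rose, beside 32.1% and 32.3% of all tested genes, with no test of the group. Plat, tissue plasminogen activator, was at 43.3 ± 4.36 CPM in overexpression libraries against 132 ± 5.45 CPM in controls (SD, n = 4; log2 fold change -1.61, SE 0.11, edgeR adjusted p = 3.12e-07). Serpine2, an inhibitor of thrombin and plasminogen activators, was at 7.83 ± 0.5 CPM in overexpression libraries against 28.8 ± 3.48 CPM in controls (log2 fold change -1.88, SE 0.14, edgeR adjusted p = 5.02e-07). Plaur, the membrane receptor for urokinase, was at 115 ± 9.24 CPM in overexpression libraries against 251 ± 46.6 CPM in controls (log2 fold change -1.13, SE 0.14, edgeR adjusted p = 2.53e-05). Serpind1, heparin cofactor II, which inhibits thrombin, went the other way, at 10.0 ± 2.07 CPM in overexpression libraries against 1.65 ± 0.464 CPM in controls (log2 fold change 2.58, SE 0.22, edgeR adjusted p = 1.93e-06). Procr was at 2.86 ± 0.372 CPM in overexpression libraries against 7.71 ± 1.05 CPM in controls (SE of the log2 fold change 0.18). Fn1, fibronectin, rose with a log2 fold change of 1.40, and Gas6, a relative of protein S, with 0.99. Vwf, the carrier of factor VIII, had 1.63 (SE 0.36, edgeR adjusted p = 0.00162), and 0.84 (adjusted p = 0.0866) once the gene-length trend was removed.

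**Figure D4:**
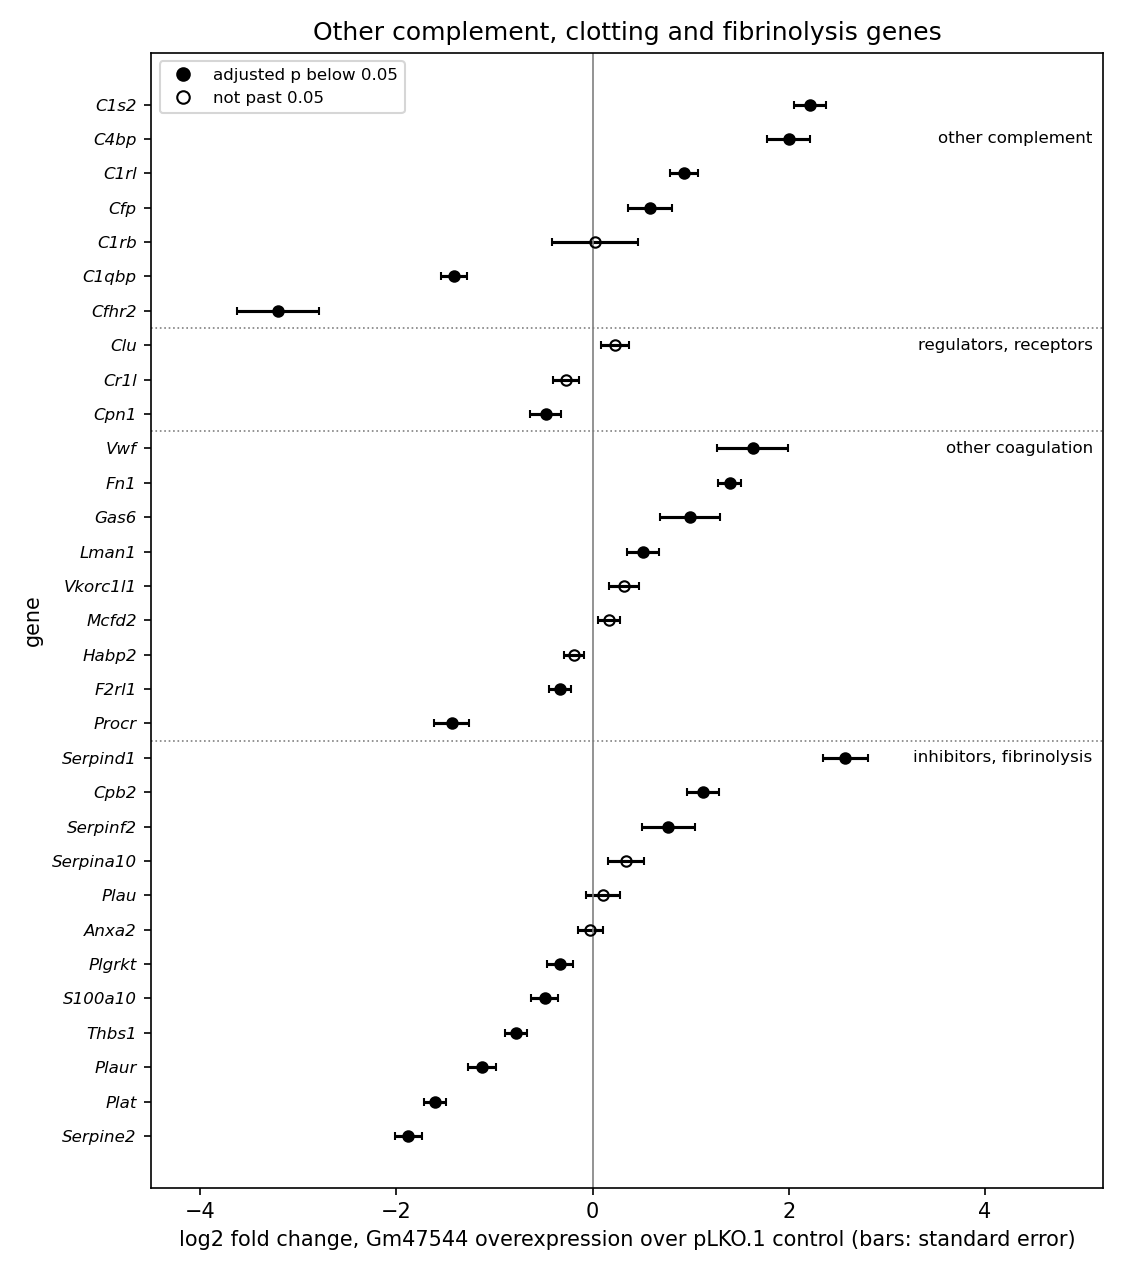
Log2 fold change of overexpression over pLKO.1 control for the 31 tested genes outside the 39, in 4 blocks, with standard errors as bars and filled circles where the adjusted p was below 0.05. Serpind1 lies furthest right at 2.58, and 6 of the 9 inhibitor and fibrinolysis genes that passed, including Plat and Serpine2, lie left of 0.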

How the data were processed

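Raw counts by gene symbol for 8 libraries came in a single file, as the authors deposited them, unnormalized. FastQC, STAR, HTSeq and the mm10 build are listed in the submitters' processing notes, while tool versions, annotation and strand setting are not stated in the labels. Groups came from the sample titles. Positions and exon lengths are those of GENCODE M21 (GRCm38, the same assembly as mm10), where all 39 symbols matched.

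The analysis used edgeR 4.0.16 (R 4.3.3). filterByExpr with a minimum count of 10 left 11520 genes. Library sizes were scaled by TMM, and groups compared by the two-sided quasi-likelihood test with Benjamini-Hochberg adjustment over all genes, called at 0.05. Standard errors are the log2 fold change over the square root of F. CPM and RPKM use the scaled library sizes. Intervals and floors cover counting error only.

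Members and lists were chosen with earlier results of these data known. Every called member is given by library, and up to 4 called genes with the smallest p of each other list. Alternatives were other scalings and filters, DESeq2 1.42.0, limma-voom (3.58.1) with quality weights, a replicate block, a lowess trend on gene length (span 0.3) and leaving out each library. Libraries of a group differed beyond counting noise, with a chi-square per gene of at least 2.46. Promoter windows are from RefSeq. Figures were drawn with matplotlib 3.10.9. Some genes of these pathways are not reported here.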

Additional observations from a re-analysis of the deposited data

Results flagged for a closer look

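In 3 of 40 groups of 4 libraries of the tested members, 1 library lay far from the other 3 for its gene, where chance alone picks about 1 in 20. C1s1 in control library 3 was at 150.6 CPM, against 95.02 to 101 CPM in the other controls, and its log2 fold change was 2.19 without that library and 2.04 with it. Cfb in overexpression library 1 was at 9.35 CPM, against 5.36 to 5.75 CPM in the other overexpression libraries, with log2 fold changes of -1.71 without it and -1.49 with it. Cd46 in overexpression library 1 was at 7.03 CPM, against 6.26 to 6.28 CPM in the others, with log2 fold changes of 2.22 without it and 2.26 with it.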

How the results depend on the processing

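Of the 15 called members, 12 kept direction and call in all 16 alternatives. Masp1, Proc and Cd59a lost their calls in 7, 6 and 5, and no called member changed direction. C4b, which did not pass, had log2 fold changes from -0.079 to 0.256 in the alternatives. The replicate numbers did not pair the libraries (correlations of same-numbered libraries -0.119 to 0.0227); with them as a block 7129 genes were called, 12 members rose and 2 fell, Masp1 being lost (adjusted p = 0.106, edgeR). Without the count filter Masp1 and Proc were lost (adjusted p = 0.051 and 0.0527), and the medians of components, regulators and coagulation genes were 0.56, 1.38 and 0.59, over 12, 4 and 15 genes. With the length trend removed the regulators' median was 1.02. Leaving out 1 library gave 6659 to 9001 called genes, the most without control library 3, with 10 to 13 members higher and 2 to 3 lower. Scaling by library totals shifted the median of all genes to 0.13 and gave 13 members higher and 2 lower. Depth limits the genes with few counts, where only large differences such as those of Vtn, Fgg and Masp2 passed.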

Other observations

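Protein C and protein S need vitamin K-dependent carboxylation. Ggcx, the carboxylase, had 0 counts over the overexpression libraries and 3 over the controls, and Vkorc1, the vitamin K reductase, had 14 and 4. Its paralog Vkorc1l1 was at 42.4 ± 1.92 CPM in overexpression libraries and 34.0 ± 7.74 CPM in controls (SD, n = 4) and did not pass (adjusted p = 0.0769, edgeR). Lman1 and Mcfd2, which carry factors V and VIII out of the endoplasmic reticulum, had log2 fold changes of 0.52 (adjusted p = 0.0143) and 0.17 (adjusted p = 0.215). These genes were picked out after their values were seen.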
